A study of Homo sapiens with 8 samples.

Results

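*AUTS2*, *SDK2*, *KIF21B* and *KLHL29* are 4 genes, most of them known for roles in neurons, that the study lists as downstream effector genes among its vSE genes, a set of SE-associated genes of Group 3 medulloblastoma (G3-MB) that also holds transcription factors, where SE stands for super-enhancer. They were described here with *SDK1* and *KIF21A*, the paralogues of *SDK2* and *KIF21B*. A stitched H3K27Ac region was given to a gene when it overlapped the gene body or lay within 50 kb of the gene's start site in GRCh38. By this rule the 6 genes, of 27449 genes examined, held 152 of the 88550 regions of the 4 cell lines. *AUTS2* held 81 of them, *SDK1* and *KLHL29* 19 each, *SDK2* 18, *KIF21A* 10 and *KIF21B* 5.

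The 4 established medulloblastoma lines were MB002, D425 and HD-MB03, which the labels call Group 3, and UW228, which the labels call SHH. No line was treated or edited for these libraries. MB002 and HD-MB03 grew in a stem cell medium, and D425 and UW228 in DMEM with serum. Each line gave 1 H3K27Ac library and 1 input library, so there was no spread between replicates within a line and no depth is known.

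H3K27Ac is an acetyl mark that histones carry at active enhancers and promoters, and a super-enhancer is a stretch in which many such elements lie close together and together carry an unusually high signal. AUTS2 is a nuclear protein that joins a non-canonical Polycomb complex and is linked to transcription and to brain development. Sidekick proteins such as SDK1 and SDK2 are immunoglobulin-type adhesion molecules of synapses, KIF21A and KIF21B are kinesin motors that restrain microtubule growth, and KLHL29 belongs to the Kelch-like family, many of whose members hand substrates to a CUL3 ubiquitin ligase.

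The signal of a region is its H3K27Ac value minus its input value, floored at 0, in reads per base pair, scaled to the mapped reads of the library (rpm per bp), multiplied by the length in base pairs. Rank 1 is the region of the highest signal in its line. SEs were those called by the authors, which numbered 363 in MB002, 302 in HD-MB03, 431 in D425 and 753 in UW228, and the other regions are typical enhancers (TEs). As a check of the labels, *OTX2*, a defining transcription factor of G3-MB, had an SE of rank 3 in MB002, 5 in HD-MB03 and 3 in D425 and no region in UW228. *CRX* had SEs in MB002 and D425, of rank 84 and 89, a TE of rank 1425 in HD-MB03 and no region in UW228. *NRL* had TEs in the 3 G3-MB lines, of rank 696 at best, and no region in UW228. *MYC* had SEs in MB002 and D425, of rank 14 and 7, but TEs in HD-MB03 and UW228, of rank 3111 with a signal of 3638 and of rank 763 with a signal of 24370. Of these 4 markers HD-MB03 thus had an SE at *OTX2* alone, and its *MYC* signal was below that of UW228. Of 5 SHH markers, *GLI1*, *GLI2*, *PTCH1* and *SFRP1* had TEs alone in UW228, of rank 11206, 8326, 13373 and 3545, and *ATOH1* had no region in any line. *SFRP1* had a region in UW228 alone, with a signal of 7879, whereas *PTCH1* and *GLI1* had SEs in HD-MB03, of rank 61 and 203. The file headers date the UW228 table to Mar 2021 and the other 3 to Jun 2020, and the UW228 table comes from a directory named default-s-t, unlike the others. The study's methods do not name UW228 among the lines sent for ChIP-seq. All 4 headers give the same stitching distance, and a different making of the tables cannot be told apart from the line.

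The stretches that were inside a region in all 3 G3-MB lines hold the sequence common to these enhancers. There were 13 such stretches in *AUTS2* (55.6 kb in all), 5 in *SDK2* (21.7 kb), 4 in *KLHL29* (7.43 kb), 2 in *KIF21A* (7.13 kb), 1 in *KIF21B* (32.9 kb) and 0 in *SDK1*. No such counts over other genes are given here. For each of the 4 vSE genes, a stretch was chosen by the signal per base pair of the whole regions that held it. It was the stretch for which the lowest of these values over the 3 lines was highest, and its own signal was not measured. The chosen stretch was searched for the 120 bases that held the most matches to 4 short motifs, outside annotated exons. Windows with the string GGATTACAGG of the Alu repeat, or its reverse complement, in them or within 120 bases were left out, and no repeat annotation was used. The motifs are TAATCC, the core bound by OTX2 and CRX, TGANTCA (AP-1), GGAATG (TEAD) and CAGATG, an E-box bound by neurogenic basic helix-loop-helix factors, each on either strand, and none of them contains another. The 4 windows, each in an intron, are printed from the plus strand of GRCh38 with the matches in capitals.
*AUTS2*, intron 4, chr7:70325873-70325992: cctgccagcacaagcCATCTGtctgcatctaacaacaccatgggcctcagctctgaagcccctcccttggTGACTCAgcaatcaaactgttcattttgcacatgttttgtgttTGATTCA
*SDK2*, intron 44, chr17:73342896-73343015: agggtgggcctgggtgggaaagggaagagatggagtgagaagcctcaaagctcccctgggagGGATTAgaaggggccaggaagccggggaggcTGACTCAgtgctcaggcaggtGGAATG
*KIF21B*, intron 1, chr1:201017469-201017588: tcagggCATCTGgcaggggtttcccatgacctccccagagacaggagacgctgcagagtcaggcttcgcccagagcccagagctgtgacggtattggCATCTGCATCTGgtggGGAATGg
*KLHL29*, intron 3, chr2:23585391-23585510: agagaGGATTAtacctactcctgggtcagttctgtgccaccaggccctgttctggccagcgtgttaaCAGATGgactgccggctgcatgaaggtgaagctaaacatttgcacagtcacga

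The window of *AUTS2* holds 2 AP-1 matches and 1 E-box match, that of *SDK2* 1 match each of the OTX2 and CRX core, AP-1 and TEAD, that of *KIF21B* 3 E-box matches and 1 TEAD match, and that of *KLHL29* 1 core match and 1 E-box match. Since the windows were picked for matches, these numbers describe them and nothing more. Over all member regions of a line, the core occurred 0.728 times per 1000 bases in MB002, 0.707 in HD-MB03 and 0.688 in D425, below the 0.878, 0.776 and 0.907 of all enhancers of the same lines. In UW228 the order was the other way, with 0.914 in the member regions and 0.811 in all enhancers. The commonest extension of the core, GGATTACAGG, is part of the Alu repeat, and with its reverse complement it accounted for 32.7% of the core matches of the member regions and 37.3% of those of all enhancers in MB002. The shares were 37.4% and 42.5% in HD-MB03, 32.5% and 44.5% in D425 and 40% and 40.5% in UW228. Outside this string the core occurred 0.490 against 0.550 times per 1000 bases in MB002, 0.442 against 0.446 in HD-MB03, 0.464 against 0.503 in D425 and 0.549 against 0.482 in UW228, in each of the 4 lines closer to each other than with the string counted. The E-box occurred 0.762, 0.882, 0.937 and 0.771 times per 1000 bases in the member regions of MB002, D425, HD-MB03 and UW228, against 0.800, 0.777, 0.918 and 0.743 in all enhancers. AP-1 was densest in UW228, with 0.444 matches per 1000 bases in the member regions and 0.448 in all enhancers, and lower in the G3-MB lines, with 0.278 to 0.339 in the member regions and 0.312 to 0.340 in all enhancers. TEAD ran from 0.536 to 0.666 in the member regions and from 0.593 to 0.628 in all enhancers. These densities were not tested.

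*AUTS2* (ENSG00000158321, 19 exons) spans chr7:69598296-70793506 on the plus strand, which makes it the 47th longest of the genes examined. Its summed signal was 315230 over 28 regions in MB002, 99196 over 21 regions in HD-MB03, 61916 over 21 regions in D425 and 22488 over 11 regions in UW228. MB002 was the highest and UW228 the lowest. The regions covered 627 kb, 181 kb, 128 kb and 58.1 kb in that order, and their mean rpm per bp was 0.502, 0.549, 0.485 and 0.387, so the lines differed more in the length called than in the signal per base pair. By this sum *AUTS2* stood 23rd of all genes in MB002, 25th in HD-MB03, 336th in D425 and 2440th in UW228. A long gene collects many regions, and per 100 kb of searched window the signal was 25315, 7966, 4972 and 1806 in the same order of lines.

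Both SEs of *AUTS2* were in MB002. The first, of rank 121, lay in intron 1 from 109.6 to 191.4 kb past the start site, joined 26 peaks over 81.9 kb and had a signal of 54991. The second, of rank 34, ran from 214.5 to 369.5 kb across exon 2 and parts of introns 1 and 2, joined 56 peaks over 155 kb and had a signal of 92851, and no region of MB002 joined more peaks. In D425 the same span of the gene held separate TEs of at most 25.5 kb, and the highest-ranked *AUTS2* region, of rank 1633, lay in intron 4. In HD-MB03 the highest regions fell just outside the SE cutoff of rank 302: a region of rank 335 over exon 6 and a region of rank 432 in intron 4, with signals of 22234 and 19642. MB002 had a similar pair in intron 4, of rank 389 and 447.

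The signal of *AUTS2* was spread differently along its introns in the 4 lines. With each region placed by its midpoint, intron 1 held 55.1% of the *AUTS2* signal in MB002, 10.0% in HD-MB03, 24.6% in D425 and 47.3% in UW228. In MB002 the SE of rank 34, which spans exon 2 and holds 29.5% of the gene's signal, counts wholly for intron 1 by this rule. Intron 4 held 23.1% in MB002, 40.1% in HD-MB03 and 50.9% in D425, and had no region in UW228. Intron 5 held 5.97% in MB002, 40.7% in HD-MB03, 11.9% in D425 and 15.1% in UW228. The midpoint rule placed the region over exon 6 in intron 5 in HD-MB03, with a signal of 22234, and in intron 6 in MB002, with a signal of 13143. Of the 13 stretches shared by the G3-MB lines, 4 lay in intron 4, and UW228 had a region over 2 of the 13, in intron 1 and around exon 6. The share over all stretches common to the G3-MB lines was not computed, so nothing is read from this count. Of the 11 UW228 regions of *AUTS2*, 8 overlapped a region of some G3-MB line, as did 42.5% of all UW228 enhancers, and the highest of the 11, of rank 4245 with a signal of 6556, lay in intron 2.

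**Figure D1:**
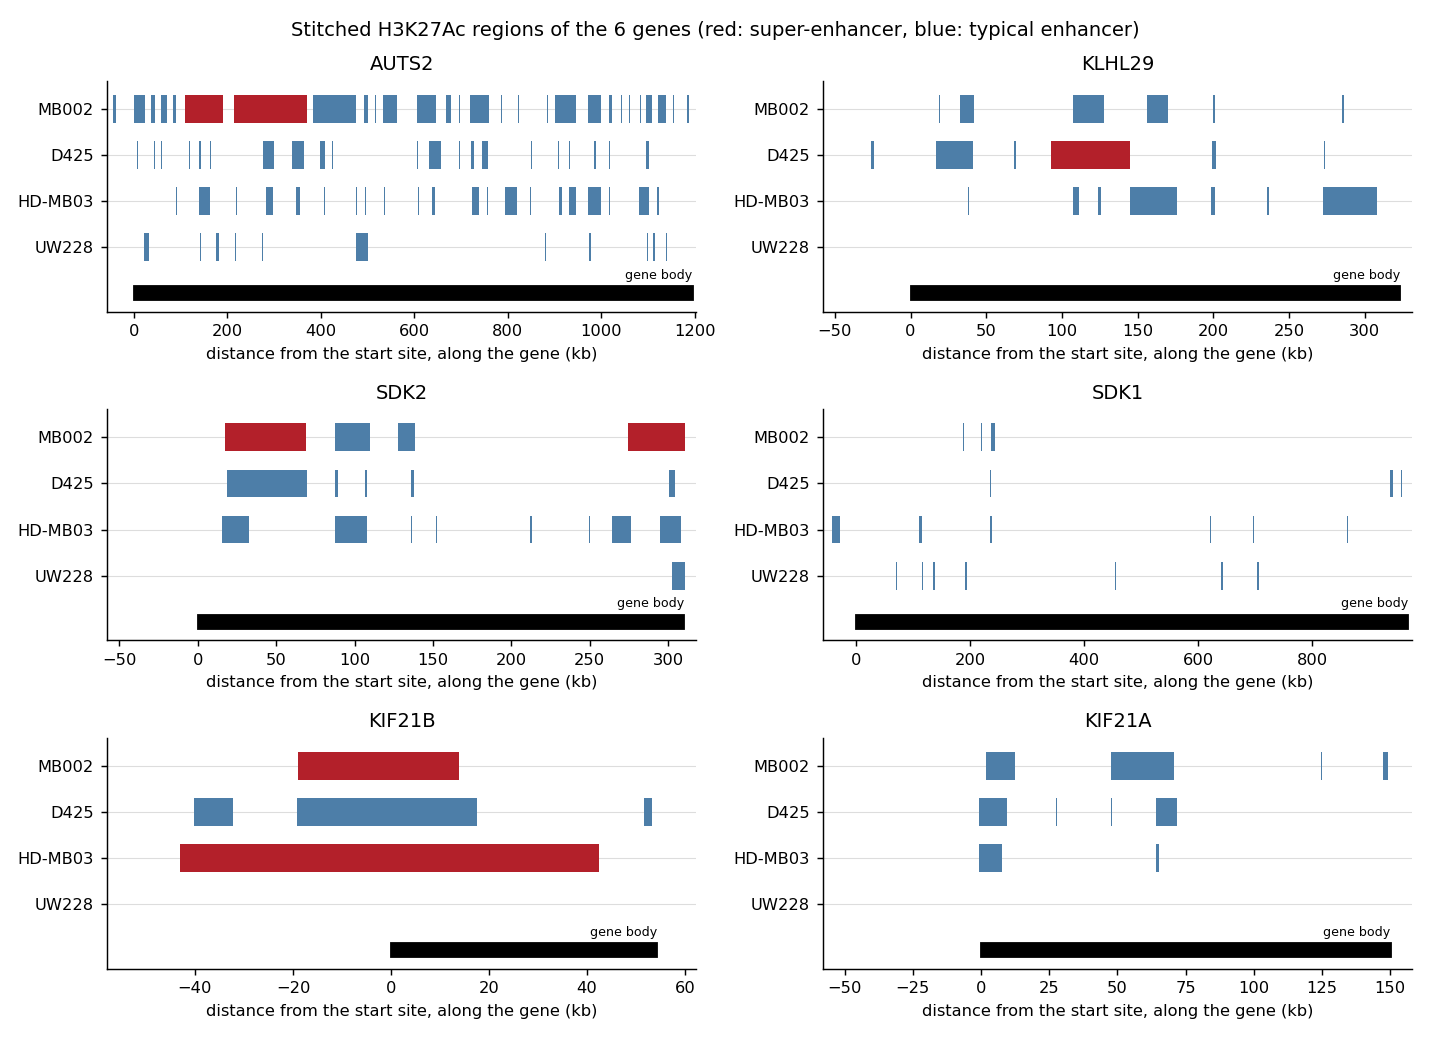
Each bar is a stitched H3K27Ac region of the line named on the vertical axis, placed by its distance from the gene's start site in kb (horizontal axis), with SEs in red, TEs in blue and the gene body in black. The 2 SEs of *AUTS2* lie between 109.6 and 369.5 kb in MB002, and UW228 has no bar at *KIF21B*, *KLHL29* or *KIF21A*.

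*SDK2* (45 exons, chr17:73334384-73644445, minus strand) had a summed signal of 107795 over 4 regions in MB002, 38891 over 5 in D425, 22641 over 8 in HD-MB03 and 2322 in its 1 region in UW228. The 3 G3-MB values stood above UW228. These sums grow with the length called, which was 122 kb in MB002, 65.7 kb in HD-MB03, 59.4 kb in D425 and 8.38 kb in UW228. Over the called length the mean rpm per bp was 0.886, 0.344, 0.654 and 0.277 in that order, again lowest in UW228. MB002 held its 2 SEs. The SE of rank 167 lay in intron 1, from 17.3 to 69.1 kb past the start site, with 9 peaks over 51.8 kb and a signal of 48282. The SE of rank 349 covered exons 37 to 45 at the 3′ end of the gene, with 8 peaks over 36.5 kb and a signal of 33305, and the same rule gave it to *CDC42EP4*, an effector of the GTPase CDC42. It was the member SE nearest the cutoff, which lay at a signal of 32353 in MB002.

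The same parts of *SDK2* carried signal in the other lines as TEs. In intron 1, D425 had a region of nearly equal extent, from 18.8 to 69.4 kb, of rank 1127 and signal 14392, and HD-MB03 one from 15.2 to 33.0 kb, of rank 2918 and signal 4011. At the 3′ end, D425 had a region of 4.22 kb in intron 44, of rank 1008, with an rpm per bp of 3.696, the highest density of any member region. HD-MB03 had a region there of rank 1168. The 1 UW228 region, of rank 8888 and signal 2322, also lay at this end, over exon 45, and overlapped the shared stretch of intron 44.

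The input library of D425 was dense at *SDK2*. The input per base pair of its 5 regions was 2.27 to 3.40 times the median of the line, and the median over the 118 D425 enhancers within 5 Mb of *SDK2* was 1.98. In the other lines the median of the *SDK2* regions was 1.59 in MB002, 0.972 in HD-MB03 and 0.664 in UW228. When the signal of each region was divided by its relative input, the best rank of *SDK2* in D425 went from 1008 to 2958 and that in MB002 from 167 to 311, still inside the SE cutoff. The mean difference between the G3-MB lines and UW228 was 32438 after the division and 54120 before it.

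*KIF21B* (35 exons, chr1:200969390-201023714, minus strand) had a summed signal of 84179 in MB002, 62493 in HD-MB03 and 23604 in D425 and no region in UW228. Each of these 3 lines had a region over its start site, whereas no region of *AUTS2*, *SDK2* or *KLHL29* overlapped theirs. A region of *AUTS2* in MB002 came close, though, beginning 0.166 kb past its start site, with rank 887 and a signal of 19053. For *KIF21B* in MB002, 1 region from 19.0 kb before to 13.8 kb past the start site, with 5 peaks over 32.9 kb, was an SE of rank 42. It had an rpm per bp of 2.56, the highest of the member regions of MB002. In HD-MB03, 1 region of 85.4 kb and 19 peaks, from 43 kb before to 42.4 kb past the start site, was an SE of rank 26 and covered exons 1 to 28. D425 had a region at the same place and of similar length, from 19.2 kb before to 17.6 kb past the start site with 14 peaks, but its signal was 20761 and its rank 651, outside the cutoff of rank 431. The rule gave these 3 regions to *CACNA1S* as well, a calcium channel gene of skeletal muscle that lies beside *KIF21B*. The study's methods leave out regions around promoters, but these regions were in the tables and are kept here.

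A wider search of 100 kb around the start site added an SE of rank 219 in D425, with 12 peaks over 36.4 kb and its nearer end 98.9 kb from the *KIF21B* start site. This region was also given to *GPR25*, *INAVA* and *MROH3P*. In MB002 the wider search added an SE of rank 161 on the other side, 98.1 kb away, given also to *ASCL5*, *CACNA1S*, *IGFN1* and *TMEM9*.

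*KLHL29* (14 exons, chr2:23385179-23708611, plus strand) followed another order of lines. Its summed signal was 22939 in MB002, 11283 in HD-MB03 and 80143 in D425, and UW228 had no region. D425 was the highest here, whereas MB002 was the highest for *AUTS2*, *SDK2* and *KIF21B*. For *KIF21B* this order turns as a percent of the line's summed enhancer signal, where HD-MB03 had 0.128% and MB002 0.0887%. The SE of *KLHL29* was a region of D425 in intron 2, from 93.0 to 145.0 kb past the start site, with 17 peaks over 52.0 kb, a signal of 57336 and rank 82, and it held 71.5% of the gene's signal in that line. MB002 had a TE of 5 peaks inside the same span, from 107.5 to 128.0 kb, of rank 3057 and signal 7342. HD-MB03 had 2 short regions inside it, of rank 9340 and 8066, with signals of 521 and 750. The most highly ranked region of MB002 was another, of rank 1741 in intron 1, and that of HD-MB03 was a region of rank 2740 over exons 6 and 7.

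**Figure D2:**
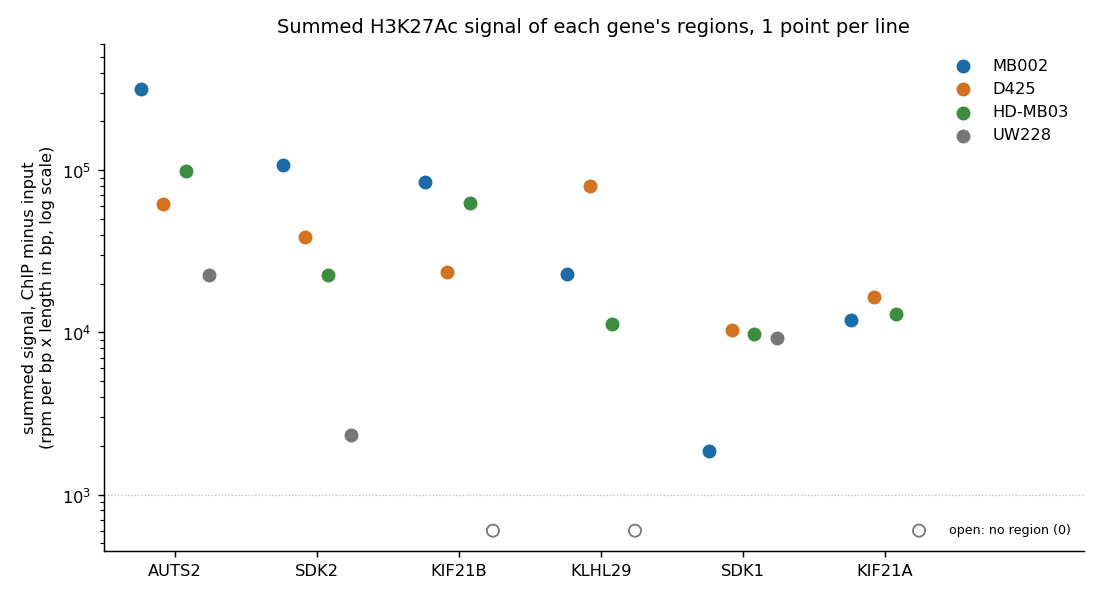
Points give the summed signal of each gene's regions in rpm per bp times length, on a log scale, 1 point per line, with open points below the dotted line for a line without a region. *AUTS2*, *SDK2* and *KIF21B* are highest in MB002 on this scale (HD-MB03 is the highest for *KIF21B* as a percent of the line's signal), *KLHL29* is highest in D425 at 80143, and the UW228 point of *SDK1* lies among those of the G3-MB lines on this scale, but above them all with division by relative input.

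The paralogues carried less signal than *SDK2* and *KIF21B* in the 3 G3-MB lines. *SDK1* (45 exons, chr7:3301252-4269000, plus strand) is longer than *SDK2*, yet its summed signal was 1868 in MB002, 9831 in HD-MB03, 10381 in D425 and 9241 in UW228, over 3, 6, 3 and 7 regions. UW228 lay within the range of the G3-MB lines, though above it with division by relative input. Its highest region was of rank 9384 in MB002, 2362 in HD-MB03, 2108 in D425 and 6478 in UW228. These regions were at different places: in intron 1 in MB002, over exons 42 and 43 in D425, 41.7 to 28.2 kb before the start site in HD-MB03 and in intron 14 in UW228.

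*KIF21A* (38 exons, chr12:39293228-39443390, minus strand) had a summed signal of 11988 in MB002, 12902 in HD-MB03 and 16439 in D425 and no region in UW228. The 3 G3-MB values were close to each other, with a mean of 13776 ± 2351 (SD, n = 3 lines). In D425 and HD-MB03 the region over the start site, of rank 1022 and 939, held 94.0% and 95.3% of that signal, and in MB002 a region that began 1.86 kb past the start site, of rank 3153, held 59.3%. No region of *KIF21A* or *SDK1* was an SE.

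*SDK2* and *KIF21B* were chosen by the study with SEs in these lines in view and their paralogues were not, so the order of each pair is a description and its p is no support for it. Per 100 kb of searched window, *SDK2* had 29938 against 184 of *SDK1* in MB002, 10801 against 1020 in D425, 6288 against 966 in HD-MB03 and 645 against 908 in UW228. *SDK2* was the higher in 3 of 4 lines, and UW228 had the opposite order. With division by relative input the order in UW228 turned, to 971 of *SDK2* against 901 of *SDK1*, and *SDK2* was then the higher in all 4 lines. The mean difference was 11149 ± 13067 (SD, n = 4 lines), with p = 0.25 in a two-sided exact sign-flip permutation test, for which 0.125 is the smallest possible p. It was 4947 without MB002, and 7072 with that division, with p = 0.125 in the exact test. *KIF21B* had 80689 against 5989 of *KIF21A* in MB002, 22626 against 8213 in D425 and 59902 against 6446 in HD-MB03. It was the higher in these 3 lines, and neither gene had a region in UW228. The mean difference was 35642 ± 34467 (SD, n = 4 lines) with UW228 entered as 0, a pair that adds no information, and 47523 over the 3 G3-MB lines. The exact p was 0.25 either way, the smallest that 3 pairs can give. The difference rested on the regions at the start site: without those, the mean difference was -127, and *KIF21A* was the higher in MB002 and HD-MB03, where *KIF21B* had no other region. It was 22623 without MB002, 21700 with division by relative input and 70479 with overlap of the gene body alone. Both SDs over 4 lines are as large as the difference or nearly so, and neither test could pass a threshold of 0.05.

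**Figure D3:**
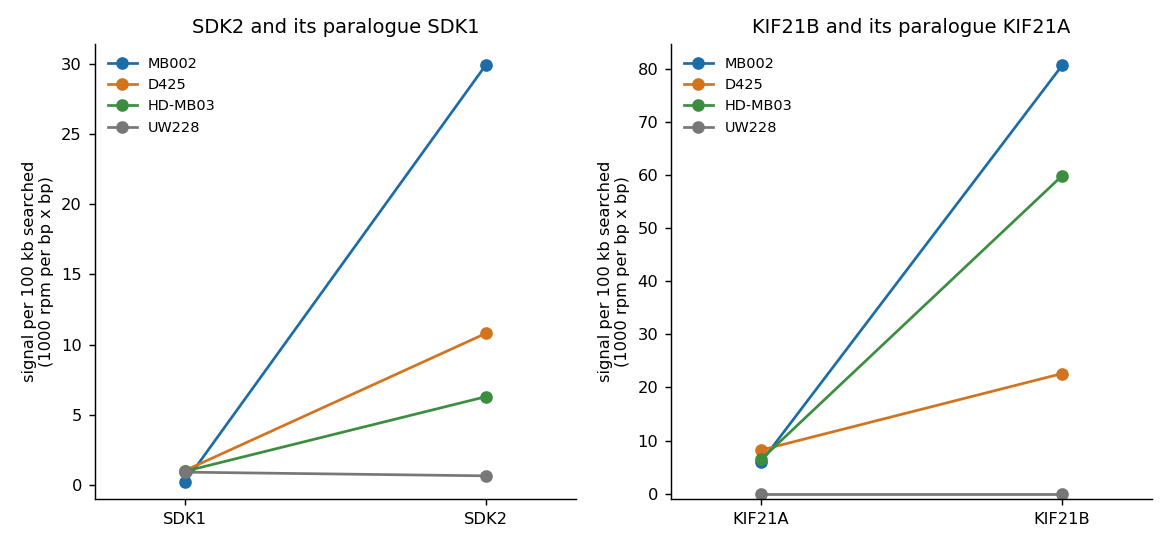
Lines join the signal per 100 kb of searched window (in 1000 rpm per bp times bp, vertical axes of different range) of the paralogue on the left and the vSE gene on the right, 1 line per cell line. *SDK2* and *KIF21B* are higher than their paralogues in MB002, D425 and HD-MB03. In UW228 *SDK2* lies below *SDK1* on this scale, but not with division by relative input (971 against 901), and neither kinesin gene has a region.

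The study used UW228 as a control beside the G3-MB lines, and the 3 G3-MB lines were compared with it here. The mean summed signal of *AUTS2* was 158781 ± 136765 (SD, n = 3 lines) against 22488, with p = 0.5 in the exact permutation test. That of *SDK2* was 56442 ± 45209 (SD, n = 3) against 2322, with p = 0.5 in the same exact test. *KIF21B* had 56759 ± 30692 (SD, n = 3) and *KLHL29* 38122 ± 36855 (SD, n = 3), each against no region, with exact p = 0.25 and 0.5. The difference of *KIF21B* was 948 without regions at the start site, when D425 alone had a region left, 37367 with division by relative input and 93691 with a 100 kb window. *KIF21A* had a difference of 13776 with exact p = 0.25, which was 2158 with exact p = 0.5 without such regions, and *SDK1* one of -1881 with exact p = 1. For *SDK1* it was -3331 with division by relative input, where UW228, at 9174, was above all 3 G3-MB lines, and -3624 with a 25 kb window or the gene body alone. It turned direction, to 865, without MB002, and also turned as a percent of the line's signal and in units of the line's median enhancer signal. These are two-sided exact permutation tests over 4 lines, which cannot give a p below 0.25, so no difference could pass a threshold of 0.05. Without MB002 the difference fell to 58068 for *AUTS2* and 28444 for *SDK2*, and without D425 to 17111 for *KLHL29*. D425 and UW228 shared a medium, and the part of the medium in these differences was not tested. No region in UW228 means that no peak there passed the caller of the authors, not that the mark was absent.

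The study chose the 4 vSE genes in part for SEs in G3-MB lines, these among them, so their higher signal there is in part set by the choice and nothing is read from the counts that follow or from the tests above. The summed signal was higher in all 3 G3-MB lines than in UW228 for 5 of the 6 genes, *SDK1* being the exception, and for 23.4% of the 23677 genes with a region in any line. All 6 genes had a region in each G3-MB line, and *KIF21A*, *KIF21B* and *KLHL29* had none in UW228. Of the 11963 genes with a region in all 3 G3-MB lines, 24.4% had none in UW228. The 4 vSE genes had an SE in at least 1 G3-MB line and none in UW228, and among the 2242 genes with an SE in some G3-MB line, 84.4% had no SE in UW228, so this pattern was common. *AUTS2*, *SDK2* and *KLHL29* each had SEs in 1 G3-MB line alone and *KIF21B* in 2, where 76.4% of the 2242 genes had SEs in exactly 1. The study asked for an SE in at least 3 of 5 G3-MB lines, 2 of which are not among these, and in tissues. It gave SEs to genes with ROSE and not by the rule used here, so these counts cannot be set against its criterion.

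SE calls by line were 3 of 6 genes in MB002, 1 in HD-MB03, 1 in D425 and 0 in UW228. In the same order of lines, the shares over all genes examined were 3.21%, 3.07%, 4.2% and 5.3%, and over the 4196 genes of at least 100 kb they were 4.36%, 3.67%, 5.27% and 9.82%. The SE calls of the vSE genes are likewise not independent evidence. The authors' full set of G3-MB lines and tissues was not analysed here.

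**Figure D4:**
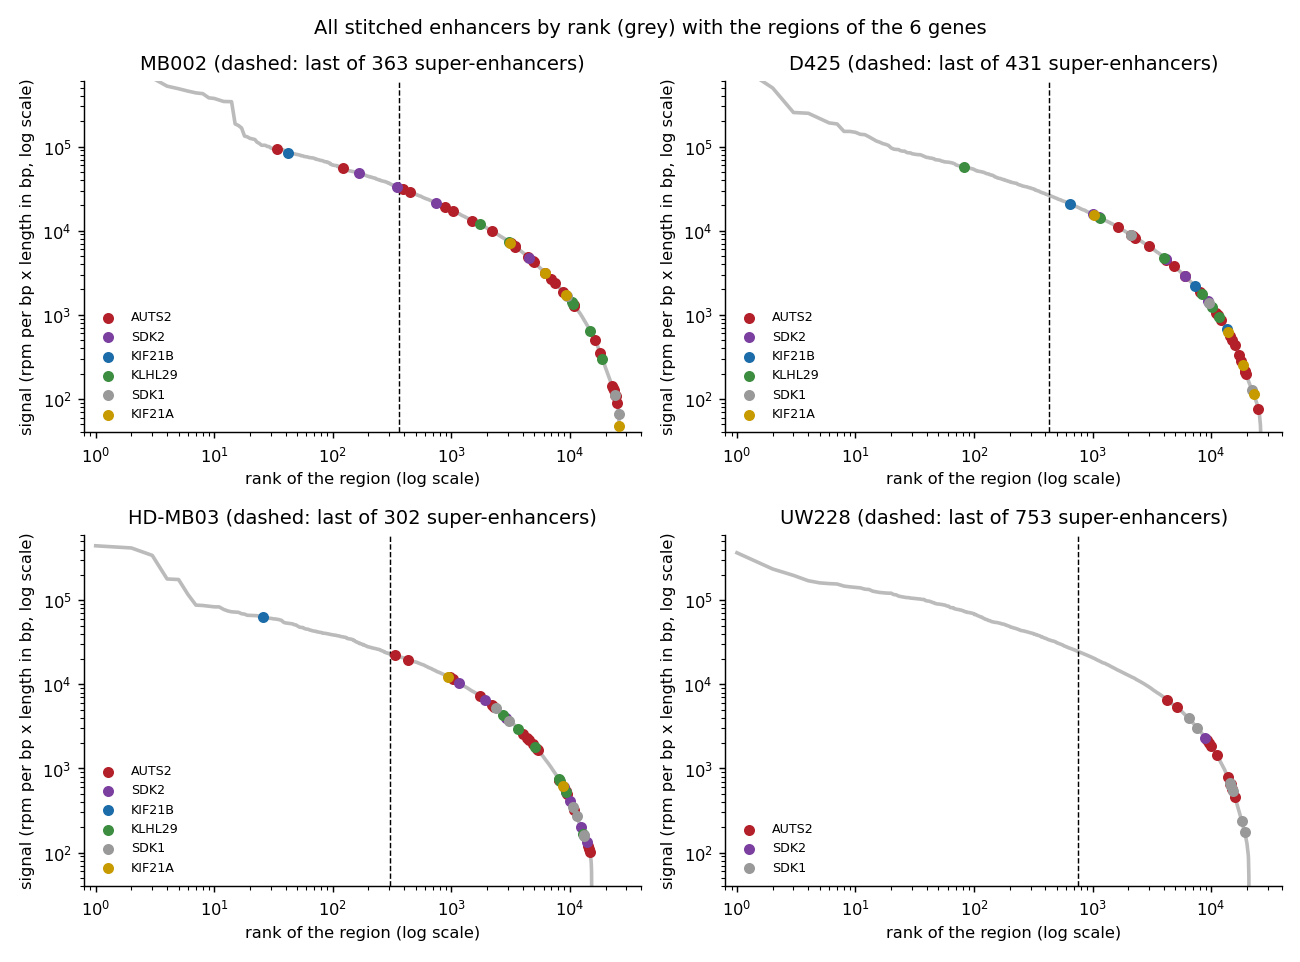
Grey curves show the signal of every stitched region (vertical axis, log scale) by its rank (horizontal axis, log scale) in each line, coloured points the regions of the 6 genes and the dashed line the last SE. MB002 has 5 points left of the dashed line, D425 1, HD-MB03 1 and UW228 0, where the highest member region is of rank 4245.

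Overlap of at least 1 base between lines was counted over the 6 genes. Of the 46 member regions of MB002, 24 overlapped a D425 region, 27 an HD-MB03 region and 8 a UW228 region. In D425, 32 of 42 overlapped MB002, 27 overlapped HD-MB03 and 3 overlapped UW228, and in HD-MB03, 34 of 45 overlapped MB002, 26 overlapped D425 and 7 overlapped UW228. For MB002 the shares were 52.2% with D425 and 58.7% with HD-MB03, beside 45% and 35.2% of all its enhancers. For D425 they were 76.2% with MB002 and 64.3% with HD-MB03, beside 45.4% and 29.9%, and for HD-MB03 75.6% with MB002 and 57.8% with D425, beside 61.2% and 51.2%. The member regions of these 3 lines were longer at the median than all enhancers, and the part of length in these shares was not tested. The shares that overlapped UW228, 17.4%, 7.14% and 15.6%, stood beside 20.3%, 24.4% and 26.2% of all enhancers of MB002, D425 and HD-MB03. Of the 19 member regions of UW228, 10 overlapped a region of a G3-MB line (52.6%), against 42.5% of all UW228 enhancers.

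The position of a region follows in part from the rule, which takes gene bodies. Of the 152, 124 (81.6%) touched introns and no exon, 73 of them at *AUTS2*, 24 touched an exon and 4 lay outside the gene body, and 5 overlapped the start site, of which 3 were at *KIF21B* and 2 at *KIF21A*. The share in introns alone was 89.5% at *SDK1* and at *KLHL29*, 70% at *KIF21A*, 55.6% at *SDK2* and 0% at *KIF21B* (0 of 5). No share over all enhancers was computed. In MB002 the member regions were long, with a median of 9.27 kb against 1.58 kb of all enhancers, and joined a median of 4 peaks against 2. The medians were 1.85 against 1.29 kb in D425, 2.36 against 1.37 kb in HD-MB03 and 1.05 against 2.26 kb in UW228. Signal per base pair was nearer to that of all enhancers, with medians of 0.464 against 0.533 in MB002, 0.694 against 0.515 in D425, 0.410 against 0.508 in HD-MB03 and 0.646 against 0.648 in UW228. When regions were ranked by signal per base pair instead of summed signal, *AUTS2* and *SDK2* lost their SE calls in MB002, *KIF21B* lost its call in HD-MB03 and *KLHL29* its call in D425, where *SDK2* gained one.

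**Figure D5:**
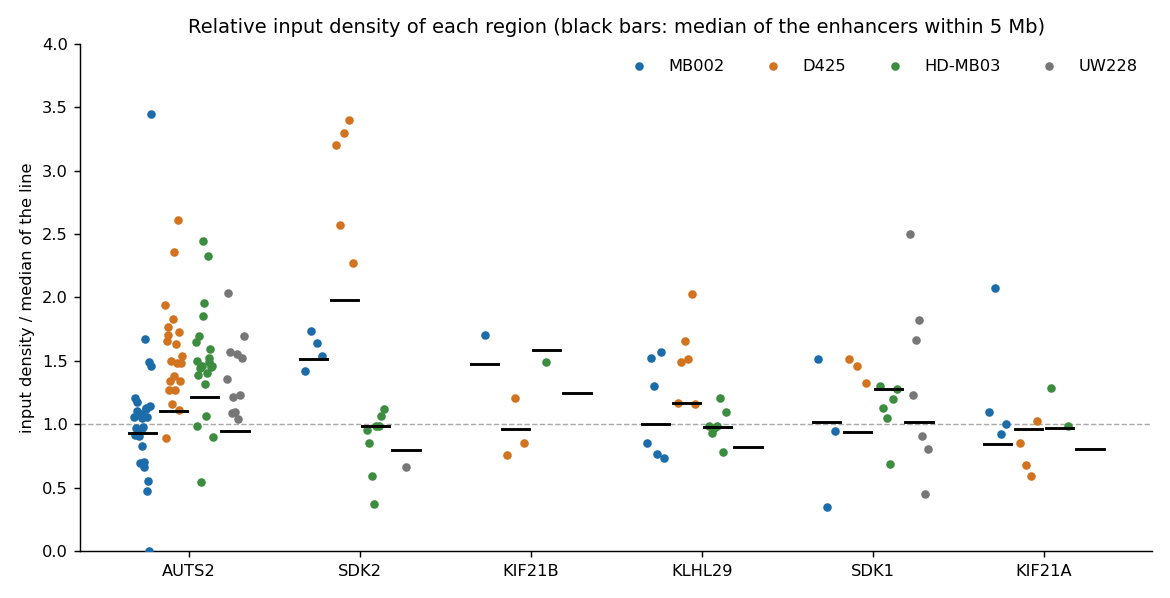
Points give the input per base pair of each member region divided by the median of its line (vertical axis), by gene and line, and black bars the median of all enhancers of that line within 5 Mb of the gene. The 5 *SDK2* regions of D425 lie between 2.27 and 3.40, above the *SDK2* regions of the other lines, and the dashed line marks the median of each line.

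Input differed from the line's median at other genes too. The median of the *AUTS2* regions was 1.06 in MB002, 1.46 in HD-MB03, 1.5 in D425 and 1.36 in UW228, and the *KIF21B* region had 1.70 in MB002 and 1.49 in HD-MB03, next to 1.48 and 1.58 over the enhancers within 5 Mb. The 3 *KIF21B* regions of D425 had a median of 0.849, from 0.759 to 1.20, next to 0.963. At *KLHL29* the median was 1.5 in D425, the line of its SE, 1.08 in MB002 and 0.985 in HD-MB03. After division by relative input, the genes with an SE kept one in that line, with best ranks of 16 for *AUTS2*, 311 for *SDK2* and 116 for *KIF21B* in MB002, 185 for *KLHL29* in D425 and 75 for *KIF21B* in HD-MB03. The division raised the number of SEs to 964 in MB002 and 989 in D425, and *KIF21B* and *KIF21A* then counted as SE genes in D425, with ranks of 795 and 967.

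SEs were counted over lists of known partners and family members of these genes, beside the 3.07% to 5.3% of all genes with an SE in a line. None of 12 AUTS2 partners and Polycomb genes and none of 11 sidekick partners and related adhesion genes had an SE in any line. Of 9 kinesin-4 family and KIF21 partner genes, *KANK1*, a cortical protein that binds KIF21A, had an SE of rank 244 in UW228. Of 44 Kelch-like and CUL3 ligase genes, 39 were annotated, and 4 of these had an SE, 0 to 2 in a line: *KLHL35* in MB002 (rank 92), *KLHL21* in HD-MB03 (rank 284), and *KLHL38* and *KLHL22* in UW228 (rank 107 and 339). None of these 5 genes had its SE in more than 1 line.

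The genes whose best ranks over the 4 lines were nearest to those of each vSE gene were named by the Euclidean distance of log10 ranks, as a description over 4 libraries. For *AUTS2* (34, 1633, 335 and 4245 in MB002, D425, HD-MB03 and UW228) the nearest was *ATXN7* at a distance of 0.503, with ranks of 32, 2966, 442 and 11004, then *FAM117A* and *KAT7*, which share their regions. For *SDK2* (167, 1008, 1168 and 8888) it was *AGBL1* at 0.135, with 149, 790, 1292 and 9998, followed by *ELMO1* and *DISC1*. For *KIF21B* (42, 651, 26 and no region) it was *CIPC* at 0.386, with 63, 714, 56 and 17647, followed by *CASZ1*, a zinc finger factor, and *CHPF*. For *KLHL29* (1741, 82, 2740 and no region) it was *PCOLCE2* at 0.234, with 2696, 107, 2391 and 19017, followed by *CHKA* and *LETM1*.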

How the data were processed

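Each of the 4 lines gave 1 H3K27Ac ChIP-seq library and 1 input library. Reads were aligned by the authors to GRCh38 with Bowtie2 (2.3.0), handled with SAMtools (1.9), cleared of multi-mapping and duplicate reads, and peaks were called over input with MACS2 (2.2.6) and stitched and ranked with ROSE. The headers give a stitching distance of 12 kb, slightly shorter than the distance stated in the study's methods. The deposited signal of a region is reads per base pair scaled to mapped reads (rpm per bp) times its length, with input not subtracted. The deposited score is the rank by H3K27Ac minus input, which the recomputed signal followed in all 4 lines. Depth is unknown, so no counting interval was given.

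Regions were joined to GENCODE 44 genes whose symbols are curated RefSeq genes, with the same rule for all genes. No region ran past a chromosome end of the reference genome, and 8 regions on chromosome names not held in that reference were left out of motif counts. Intron and exon numbers follow the canonical transcript. Summed signals were compared with exact permutation tests over lines, written in Python (3.11.15) with numpy (2.4.6) and pandas (2.3.3) and tested on simulated data. The alternatives were no input subtraction, division by relative input, a recomputed cutoff, ranking by signal per base pair, other windows and overlaps, other scales, and leaving out each line or the regions within 2.5 kb of a member's own start site.

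Named were the 6 genes, the other genes of their SEs, the 3 genes nearest in rank to each vSE gene and list genes with an SE. The members and lists were chosen with earlier results of these data known. RNA-seq, tissues and other lines were not analysed here. A promoter window from RefSeq was found for *AUTS2*, *SDK1*, *KIF21A* and *KLHL29* and is not shown.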

Additional observations from a re-analysis of the deposited data

How the results depend on the processing

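The differences between the G3-MB lines and UW228 kept their direction for *AUTS2*, *SDK2*, *KIF21A*, *KIF21B* and *KLHL29* under every alternative run. For *KIF21B* without regions at the start site this rested on D425 alone, at 2843, as MB002 and HD-MB03 then had no region. Mean signal per base pair could not be given for *KIF21A*, *KIF21B* and *KLHL29*, which have no region in UW228. For *SDK1* the difference turned from -1881 to 0.00292 as a percent of the line's signal and to 3.94 in units of the line's median enhancer signal. Without each G3-MB line in turn it ran from -3391 to 865, the highest being without MB002. It was -3331 with division by relative input and -3624 with a 25 kb window or the gene body alone. The mean difference of *KIF21B* and *KIF21A* per 100 kb turned to -127 without regions at the start site. Without each line in turn, it ran from 22623, without MB002, to 47523, and that of *SDK2* and *SDK1* from 4947, without MB002, to 14953. Division by relative input gave 21700 for the first pair and 7072 for the second, and overlap of the gene body alone gave 70479 for the first. For *KIF21B* against UW228, the difference of 56759 became 37367 with division by relative input, 93691 with a 100 kb window and 948 without regions at the start site. The number of the 6 genes with an SE in MB002 went from 3 to 1 (*KIF21B*) by signal per base pair and to 2 (*AUTS2* and *SDK2*) without regions at the start site. In D425 it went from 1 to 3 with division by relative input and to 2 with a 100 kb window, and in HD-MB03 from 1 to 0 both by signal per base pair and without regions at the start site. It was 0 in UW228 throughout. The cause of these changes was not tested, apart from the regions that the start site alternative removes by construction. The number of SEs in MB002 was 363, 313 without input subtraction and 964 with division by relative input.

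Each line had 1 H3K27Ac library, so the spread given is between lines. UW228 is 1 line, and its label cannot be told apart from the making of its table. The tables list called regions only, and a region near several genes was given to each of them.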
